A study of Mus musculus with 36 samples.

Results

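The 9 genes described here mark or maintain the stem cells of the intestinal crypt: the receptor gene Lgr5, the ubiquitin ligase gene Rnf43, the feedback inhibitor gene Axin2, the transcription factor genes Ascl2 and Sox9, and Olfm4, Smoc2, Prom1 and Msi1. They were chosen by name, and each symbol matched 1 Ensembl gene among the 52636 genes of the count files, of which 35326 had a read in at least 1 of 30 intestine libraries. All 9 genes passed the filter on low counts in both sets of intestines, so no member is missing from any test. RNA was sequenced from whole intestines of mouse embryos at E18.5, with 3 embryos per genotype, in 2 sets that were normalised and tested separately because each has its own Mlkl-/- controls. The D387A set holds Mlkl-/- controls, embryos homozygous for the Casp8 knock-in allele D387A (also written 1xDA), and 4 genotypes that join this knock-in to further knockouts. The first of these lacks Cflar and Mlkl, the second lacks Casp1 too, the third Casp1 and Ifnar1 too, and the fourth Casp1 and Fadd too. The C362A set holds its own Mlkl-/- controls and 3 genotypes homozygous for the Casp8 knock-in allele C362A, of which all lack Mlkl, 1 also lacks Casp1 and 1 also lacks Cflar. Below, a genotype is named by its Casp8 allele and its deleted genes, so that 1xDA Cflar Mlkl stands for Casp8 1xDA/1xDA Cflar-/- Mlkl-/- and C362A Mlkl Casp1 for Casp8 C362A/C362A Mlkl-/- Casp1-/-. The D387A change removes a site at which caspase-8 cleaves itself, and in C362A the cysteine needed for catalysis is replaced. Every intestine except those of the 1xDA group lacks MLKL, the pore-forming protein of necroptosis, so that group differs from its controls at Mlkl as well as at Casp8. The deletions and knock-ins are in the germ line and act in every cell of the embryo, and the Cflar deletion of the C362A set was made separately from that of the D387A set. Another 6 libraries came from Mlkl-/- and 1xDA Cflar Mlkl embryonic fibroblasts (MEFs), which contain no intestinal epithelium.

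Stem cells at the base of the intestinal crypt divide to replace the epithelium, and Wnt ligands and R-spondins from neighbouring cells keep them in that state. Lgr5 encodes an R-spondin receptor, Rnf43 a membrane ubiquitin ligase that removes Frizzled receptors, and Axin2 a scaffold of the complex that destroys β-catenin, so that Rnf43 and Axin2 are both targets and inhibitors of the pathway. Ascl2 encodes a transcription factor of crypt base cells, Sox9 a transcription factor of progenitors and Paneth cells, Olfm4 a secreted glycoprotein, Smoc2 a secreted matrix-associated protein, Prom1 the membrane protein CD133 and Msi1 an RNA-binding protein. In the mouse, crypts form after birth, and before birth proliferating progenitors lie between the villi. cFLIP, the product of Cflar, pairs with caspase-8 and governs how it signals cell death, FADD recruits both, caspase-1 drives pyroptosis, and IFNAR1 is a chain of the type I interferon receptor.

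On GRCm38, 3 of the 9 genes lie on chromosome 11 and 2 on chromosome 5. Axin2 spans chr11:108920349-108950783 on the plus strand, Sox9 chr11:112782224-112787760 on the plus strand and Rnf43 chr11:87662722-87735539 on the plus strand. Lgr5 spans chr10:115450311-115587780 on the minus strand, Ascl2 chr7:142966829-142969264 on the minus strand and Olfm4 chr14:79984081-80023139 on the plus strand. Smoc2 spans chr17:14279506-14404790 on the plus strand, Prom1 chr5:43993620-44102032 on the minus strand and Msi1 chr5:115429599-115455698 on the plus strand. The exons of Axin2 share 209 bases with the antisense gene Gm11670, which had 21 reads over all 36 libraries, and those of Prom1 share 424 bases with the antisense gene Gm16401, which had 285 reads. Olfm4 shares 153 exon bases with Gm6999 on its own strand, which had 0 reads.

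The promoters of Axin2, Ascl2 and Olfm4, 3 genes on which the comparisons below turn, are printed 5′ to 3′ on the strand of the gene from RefSeq (GRCm38.p6), with every CG pair in capitals for Axin2 and Ascl2, and with the matches to the kappaB motif and to TATAA in capitals for Olfm4. The Axin2 stretch is chr11:108920149-108920348 (plus strand), the Ascl2 stretch chr7:142969265-142969464 (minus strand) and the Olfm4 stretch chr14:80000102-80000280 (plus strand), each starting 200 bases before the transcript start that RefSeq gives.
Axin2: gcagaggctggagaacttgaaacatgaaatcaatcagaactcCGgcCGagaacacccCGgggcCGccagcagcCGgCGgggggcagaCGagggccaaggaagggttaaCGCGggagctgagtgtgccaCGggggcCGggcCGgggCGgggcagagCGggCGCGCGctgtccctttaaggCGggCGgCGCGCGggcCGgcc
Ascl2: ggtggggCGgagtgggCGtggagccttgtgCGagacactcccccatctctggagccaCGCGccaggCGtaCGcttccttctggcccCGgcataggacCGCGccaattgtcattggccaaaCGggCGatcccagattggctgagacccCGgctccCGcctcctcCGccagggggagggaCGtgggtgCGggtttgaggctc
Olfm4: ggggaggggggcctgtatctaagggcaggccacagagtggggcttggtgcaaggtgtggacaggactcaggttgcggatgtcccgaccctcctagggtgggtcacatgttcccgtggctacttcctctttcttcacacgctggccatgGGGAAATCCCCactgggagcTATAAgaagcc

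These promoters differed in base composition. Over 250 bases before the start, 69.2% of the Axin2 bases and 67.6% of the Ascl2 bases were G or C, with 24 and 19 CG pairs, compared with 54% and 4 pairs for Olfm4 and a median of 52.4% and 6 pairs over 32851 windows. RefSeq windows were matched for 5 of the 9 genes (Axin2, Ascl2, Olfm4, Prom1 and Rnf43). A search of both strands for the TCF/LEF motif ATCAAAG and its 3 variants that start with TT, AA or TA in place of AT, which the transcription factors of Wnt signalling bind, found a match in 0 of the 5 genes and in 14.8% of all windows. The shorter core CAAAG, which all 4 contain, was also absent from the 5 genes and present in 48.6% of windows. Olfm4 alone held TATAA (22.8% of windows), from -32 to -28, and the kappaB motif (3.9% of windows), in 2 overlapping matches from -52 to -43 and from -51 to -42. A match describes letters, not a site that was shown to be used, and a missing match says only that these letters are not in this window.

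The intestine libraries held 17943524 to 31052238 reads assigned to genes (median 24334001). Casp1 was at 0 to 0.212 CPM (counts scaled to library size) in the 12 libraries labelled Casp1-/- and at 42.5 to 124 CPM in the other 18, Fadd at 0.658 to 1.01 CPM compared with 25.4 to 50.4, and Ifnar1 at 33.2 to 37.9 CPM compared with 76.1 to 103. Replicate 3 of 1xDA Cflar Mlkl Casp1 and replicate 3 of C362A Cflar Mlkl stood apart from the other embryos of their genotypes (chi-square per gene 69.2 and 70.8 compared with 13.2 between the others, and 66.2 and 65.6 compared with 24.3), and replicates 1 and 3 of the C362A set controls differed by 68.9. Cflar and Mlkl transcripts overlapped between deleted and other libraries, so these deletions could not be checked from the counts. The 12 epithelial markers (such as Cdh1, Epcam and Cdx2) summed to 4520 to 7940 CPM over the 30 intestines, and none was at 0 in any genotype. In the D387A set, Mlkl replicate 3 held 130 CPM of stomach markers (Tff1 at 69.6 CPM), against at most 9.5 CPM in any other intestine, and without it the numbers of stem cell genes that passed or were called were the same in all comparisons with that control group.

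All of the stem cell genes except Smoc2 rose in 1xDA Cflar Mlkl intestines, and Msi1 and Rnf43 did not pass when libraries were scaled to epithelial markers. Relative to Mlkl-/- intestines, 8 of the 9 genes were higher at an adjusted p below 0.05, and 6 of these (Lgr5, Axin2, Ascl2, Sox9, Olfm4 and Prom1) by more than 2-fold, which is here termed called. Of all 18360 genes tested, 29.9% passed in that direction and 9.40% were called higher. The median log2 fold change of the 9 genes was 1.20, and that of all genes was -0.01. In whole tissue, fewer or more cells of a type and less or more RNA per cell cannot be told apart. Levels below are reads scaled to exon length and library size (RPKM). Fold changes, which are differences of log2 levels, are those of the edgeR fit. Their standard error (SE) was derived from the F statistic of its test.

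Ascl2, the transcription factor gene of crypt base cells, moved furthest. In the 3 Mlkl-/- controls it was at 2.98, 3.72 and 2.37 RPKM, and at 12.2, 14.9 and 17.2 RPKM in the 3 mutants. The groups were far apart, with a log2 fold change of 2.29 (SE 0.24, adjusted p = 2.48e-07). Sox9, which progenitors and Paneth cells express, was at 5.85, 6.61 and 5.2 RPKM in the controls and at 10.8, 13.9 and 13.9 RPKM in the mutants, again without overlap (log2 fold change 1.13, SE 0.12, adjusted p = 2.69e-07).

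Among the genes of Wnt signalling, the R-spondin receptor gene Lgr5 was at 2.9, 2.43 and 2.57 RPKM in the controls and at 5.72, 10.6 and 5.72 RPKM in the mutants. Replicate 2 of the mutants stood highest, and the groups did not overlap (log2 fold change 1.48, SE 0.23, adjusted p = 2.57e-05). Without that embryo the log2 fold change of Lgr5 was 1.12. Axin2, the β-catenin feedback inhibitor gene, was at 5.71, 6.38 and 4.9 RPKM in the controls and at 14.1, 12.3 and 12.8 RPKM in the mutants (log2 fold change 1.20, SE 0.13, adjusted p = 6.2e-07). Rnf43, the Frizzled ubiquitin ligase gene, was at 9.23, 9.25 and 7.23 RPKM in the controls and at 14.6, 15.8 and 12.6 RPKM in the mutants. The 2 genes did not overlap between the groups, and the rise of Rnf43 was below 2-fold (log2 fold change 0.74, SE 0.10, adjusted p = 9.37e-06).

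Of the secreted and membrane proteins, Olfm4 was the most abundant stem cell transcript per length in the mutants, at 95.4, 151 and 99.3 RPKM, after 30, 28.6 and 34.6 RPKM in the controls. The lowest mutant was well above the highest control (log2 fold change 1.89, SE 0.16, adjusted p = 2.08e-08). Prom1, the CD133 gene, was at 6.45, 7.11 and 6.91 RPKM in the controls and at 22.8, 24.3 and 23.4 RPKM in the mutants. It had the smallest SE and the smallest adjusted p of the 9 genes in this comparison (log2 fold change 1.79, SE 0.08, adjusted p = 1.57e-11). Msi1, the RNA-binding protein gene, was at 7.17, 8.04 and 6.83 RPKM in the controls and at 10.1, 12.6 and 9.14 RPKM in the mutants (log2 fold change 0.53, SE 0.14, adjusted p = 0.00359), a rise that was not seen when libraries were scaled to the 12 epithelial markers (log2 fold change -0.07). Smoc2 was the exception, at 30.3, 31 and 34 RPKM in the controls and 31.4, 39.4 and 28.4 RPKM in the mutants. These values overlapped (log2 fold change 0.06, 95% interval -0.20 to 0.32, adjusted p = 0.73).

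**Figure D1:**
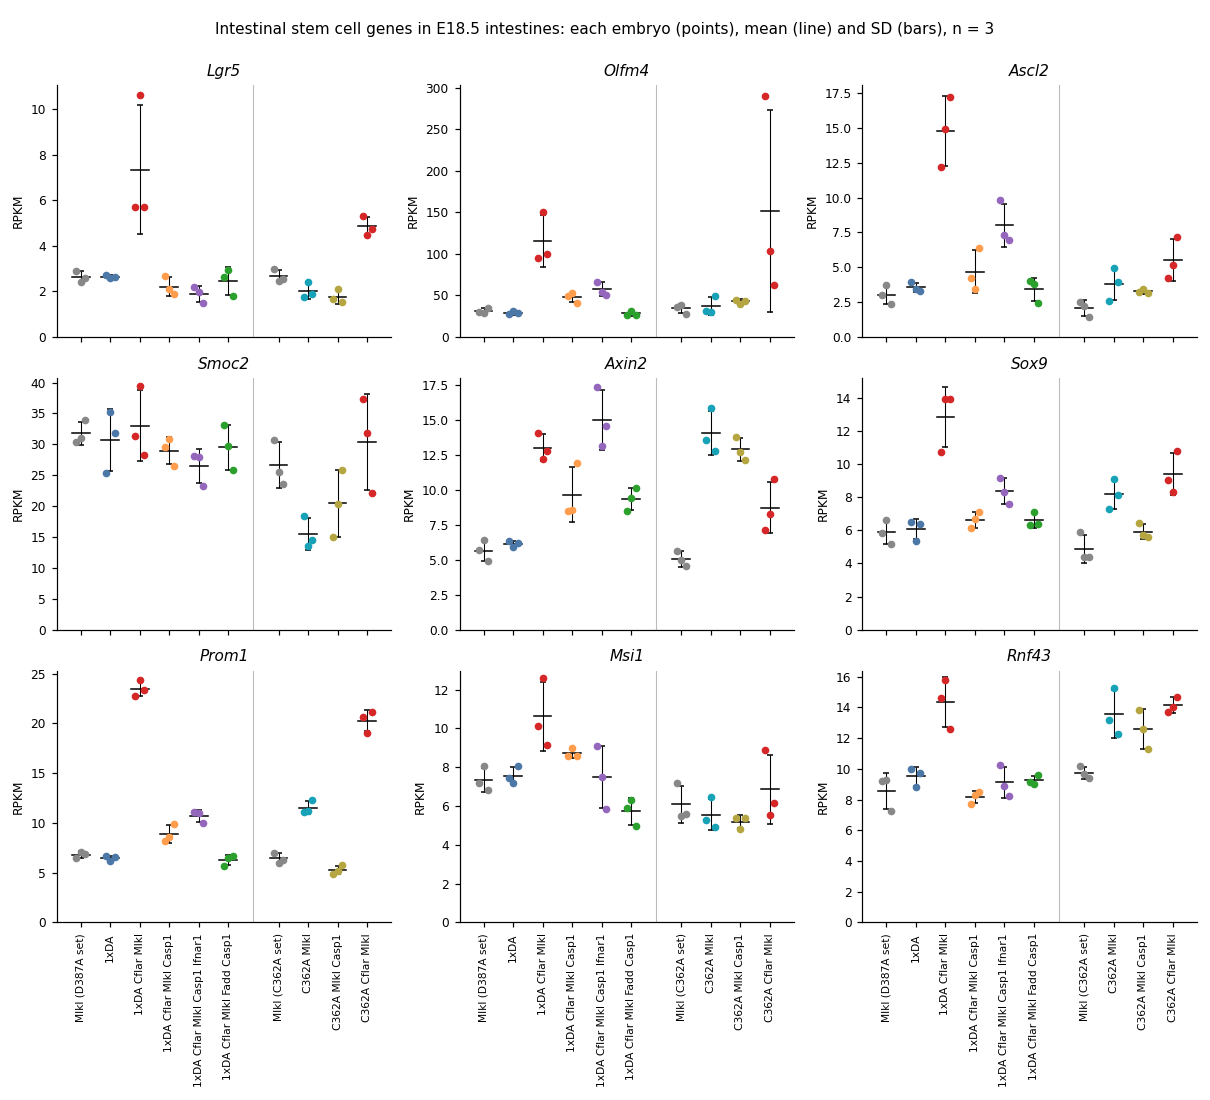
RPKM of each stem cell gene in each embryo (points, 3 per genotype) of both intestine sets, with the mean (line) and SD (bars) of each genotype. In the D387A set the 1xDA Cflar Mlkl embryos lie above the Mlkl-/- embryos for every gene except Smoc2, and Olfm4 reaches 290 RPKM in 1 C362A Cflar Mlkl embryo.

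Several other transcripts moved in the same intestines, and their part in the values above was not tested. All 10 enterocyte markers, the genes of mature absorptive cells, were lower by more than 2-fold, as were 12.8% of all genes (median log2 fold change of the markers -3.43), and their summed level was 2630 to 4960 CPM compared with 48100 to 55200 CPM in the controls. Lct, the lactase gene, had a log2 fold change of -8.54 (SE 0.49) and Fabp1, a fatty acid-binding protein gene, one of -7.51 (SE 0.20). All 15 cell cycle genes rose, where 29.9% of all genes did, and 7 of them by more than 2-fold, where 9.40% of all genes did (median of the 15 genes 1.00), and Rrm2, a subunit of ribonucleotide reductase, had a log2 fold change of 1.63 (SE 0.11). The 6 Paneth cell markers, which include antimicrobial proteins of the crypt base, were all higher by more than 2-fold, from a sum of 17.2 to 37.4 CPM to 289 to 313 CPM. Smooth muscle markers rose for 6 of 8 genes (5230 to 5690 CPM in the controls, 7220 to 9020 CPM in the mutants), fibroblast markers for 5 of 8 and epithelial markers for 7 of 12, with 2 of the 12 lower (29.9% of all genes passed as higher and 29.5% as lower). When libraries were scaled to the epithelial markers instead of to all genes, the log2 fold change of the median gene shifted by -0.60, 3 stem cell genes were called (Ascl2 at 1.70, Olfm4 at 1.28 and Prom1 at 1.19), Lgr5 at 0.88, Axin2 at 0.61 and Sox9 at 0.54 passed but were not called, and Smoc2 passed as lower at -0.55. On this scale, chosen after seeing the data, Rnf43 was at 0.15 (adjusted p = 0.404) and no longer passed.

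The other genes of the crypt base and of Wnt signalling did not move as 1 block, in a comparison where 29.9% of all genes passed as higher and 29.5% as lower. Of 16 other crypt base genes, 8 passed as higher and 4 as lower, and their median log2 fold change was 0.19. Aqp4, a water channel gene, rose (log2 fold change 2.21, SE 0.28), as did the chloride cotransporter gene Slc12a2 (1.43, SE 0.14) and Hopx (1.21, SE 0.18), whereas the telomerase gene Tert fell (log2 fold change -2.88, SE 0.33), as did Nrn1 (-1.83, SE 0.24). Among 12 other Wnt targets, 7 passed as higher and 1 as lower. Sp5, a transcription factor gene induced by β-catenin, had the largest change of this list (log2 fold change 5.79, SE 0.37), followed by Cd44 (2.17, SE 0.16) and Myc (1.94, SE 0.14).

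Upstream of these targets, 4 of 13 genes for Wnt ligands and R-spondins passed as higher and 3 as lower, where 29.9% and 29.5% of all genes did. Wnt2 had a log2 fold change of 1.75 (SE 0.56, adjusted p = 0.0123) and Rspo3, an R-spondin made by stromal cells, one of 1.14 (SE 0.17, adjusted p = 1.98e-05). Wnt9b fell (log2 fold change -4.10, SE 0.85), as did Rspo2 (-1.15, SE 0.31). Of 15 receptor genes 9 were higher and 3 lower, and of 15 transducer genes 5 were higher and 2 lower. Of 10 antagonist genes 1 was higher and 3 were lower, and Sfrp5, a secreted Frizzled-related protein gene, had a log2 fold change of -3.51 (SE 0.95). The Notch list (6 higher and 4 lower of 16) and the BMP list (9 higher and 8 lower of 20) had medians of 0.11 and -0.09, and within the latter Bmp7 fell (log2 fold change -2.39, SE 0.15).

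**Figure D2:**
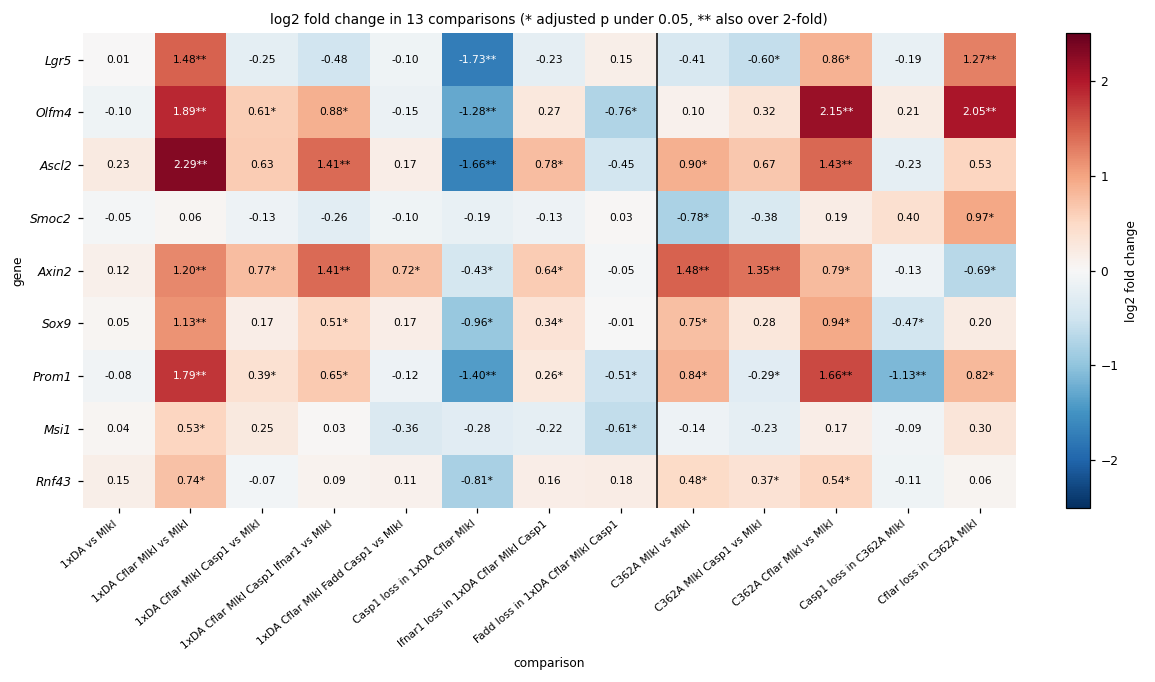
Log2 fold change of each stem cell gene (rows) in each of 13 comparisons (columns, D387A set left of the line), coloured from blue (lower) to red (higher), with 1 asterisk at an adjusted p below 0.05 and 2 where the change is also over 2-fold. The column of 1xDA Cflar Mlkl against Mlkl-/- is red except for Smoc2, and the 1xDA column holds no asterisk.

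In 1xDA intestines, which retain cFLIP, no stem cell gene differed from the controls beyond the spread between embryos. None passed in the comparison of 1xDA with Mlkl-/- intestines by edgeR, 0 had an unadjusted p below 0.05 (5.02% of all genes did), and 0 passed by DESeq2 or by limma-voom. The log2 fold changes ran from -0.10 for Olfm4 to 0.23 for Ascl2, and the smallest adjusted p was 0.966. Only 1 of all genes tested, 0.00545%, passed in this comparison. Lgr5 was at 2.7, 2.59 and 2.63 RPKM and Axin2 at 6.32, 5.9 and 6.23 RPKM, both inside the range of the controls. The 95% interval of the Lgr5 change was -0.45 to 0.46 and that of Prom1 -0.24 to 0.08.

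Loss of caspase-1 lowered most of the stem cell genes in 1xDA Cflar Mlkl intestines. In the comparison of 1xDA Cflar Mlkl Casp1 with 1xDA Cflar Mlkl intestines, 7 of the 9 genes passed as lower (22.5% of all genes did), and Lgr5, Ascl2, Prom1 and Olfm4 were called lower (4.51% of all genes). The median log2 fold change of the 9 genes was -0.96. Lgr5 was at 2.66, 2.11 and 1.86 RPKM without caspase-1, below all 3 embryos with it (log2 fold change -1.73, SE 0.23, adjusted p = 1.05e-05). This was the largest change, but with scaling to the epithelial markers Lgr5 was at -1.29 and Ascl2 at -1.33. Ascl2 was at 4.2, 3.43 and 6.4 RPKM (log2 fold change -1.66, SE 0.23, adjusted p = 1.35e-05). Both genes fell without overlap between the groups.

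Prom1 was at 8.21, 8.62 and 9.9 RPKM in the Casp1-/- embryos (log2 fold change -1.40, SE 0.08, adjusted p = 7.67e-10), and Olfm4 was at 48.8, 52.3 and 41.3 RPKM (log2 fold change -1.28, SE 0.16, adjusted p = 3.93e-06). Sox9 and Rnf43 fell by less than 2-fold, with log2 fold changes of -0.96 (SE 0.12, adjusted p = 4e-06) and -0.81 (SE 0.10, adjusted p = 7.32e-06). For Sox9 the call depended on single embryos, since it was called lower without 1xDA Cflar Mlkl replicate 1 (-1.07) and without Casp1-/- replicate 3 (-1.005). Axin2 fell least of the genes that passed. It was at 8.49, 8.56 and 11.9 RPKM (log2 fold change -0.43, SE 0.13, adjusted p = 0.0112), and it did not pass without 1xDA Cflar Mlkl replicate 1 (adjusted p = 0.0503), nor without Casp1-/- replicate 1 (0.0605) or 2 (0.0614). Msi1 had a log2 fold change of -0.28 (adjusted p = 0.106), and passed without 1xDA Cflar Mlkl replicate 3 (-0.38, adjusted p = 0.0495). Smoc2 had one of -0.19 (adjusted p = 0.257).

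The same loss moved the neighbouring transcripts too. All 10 enterocyte markers rose by more than 2-fold (8.88% of all genes were called higher), to a sum of 26300 to 37100 CPM, all 15 cell cycle genes fell (median -0.70), all 6 Paneth markers fell by more than 2-fold, and all 8 smooth muscle markers fell (4680 to 5070 CPM, 2 of them by more than 2-fold). All 7 erythroid markers were higher, over a range of 819 to 4700 CPM in the 3 Casp1-/- embryos. The part of these shifts in the stem cell gene values was not tested. Of 12 other Wnt targets, 7 were lower and 1 higher (22.5% and 24.5% of all genes were), and Sp5 fell (log2 fold change -3.81, SE 0.30), as did Cd44 (-1.67, SE 0.15) and Myc (-1.12, SE 0.14). With libraries scaled to the epithelial markers, 6 of the 9 stem cell genes passed as lower and 3 were called. Olfm4 was then at -0.84 and no longer called, and Axin2 was at -0.07 (adjusted p = 0.696) and no longer passed.

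**Figure D3:**
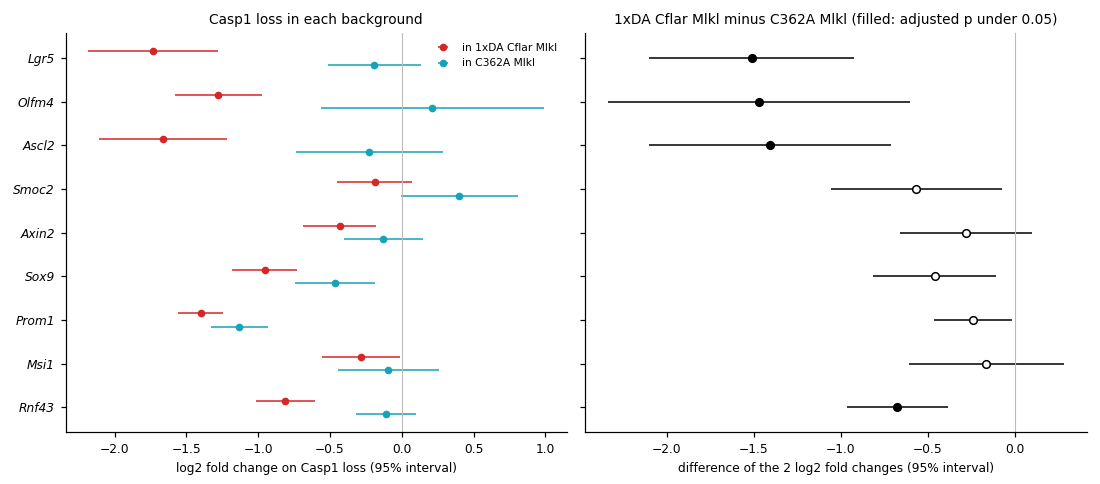
Log2 fold change of each stem cell gene on loss of Casp1, with 95% intervals, in 1xDA Cflar Mlkl intestines and in C362A Mlkl intestines (left), and the difference between these changes, filled where its adjusted p is below 0.05 (right). Lgr5, Olfm4 and Ascl2 lie below -1 in the former and between -0.23 and 0.21 in the latter, and Prom1 lies below -1 in both.

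Relative to Mlkl-/- intestines, 1xDA Cflar Mlkl Casp1 intestines had 3 genes above control. Axin2 (log2 fold change 0.77, SE 0.13, adjusted p = 0.000819), Olfm4 (0.61, SE 0.16, adjusted p = 0.0104) and Prom1 (0.39, SE 0.08, adjusted p = 0.00296) passed, as did 10.2% of all genes in that direction. By edgeR 0 of the 9 genes were called in either direction, where 4.34% of all genes were, 0 were called by DESeq2 or limma-voom, and 4 had an unadjusted p below 0.05, as had 33.9% of all genes. Ascl2 had a log2 fold change of 0.63 (adjusted p = 0.0718) and passed without Casp1-/- replicate 2 (0.81, adjusted p = 0.026), by DESeq2 (adjusted p = 0.0402) and without the filter on low counts (adjusted p = 0.0343). With scaling to the epithelial markers Axin2 passed (0.54), whereas Olfm4 (0.44, adjusted p = 0.17) and Prom1 (0.17, adjusted p = 0.47) did not. Lgr5 was not above the controls (log2 fold change -0.25, 95% interval -0.71 to 0.20).

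In the Ifnar1-/- embryos Axin2 was above and Lgr5 below the Mlkl-/- controls. In 1xDA Cflar Mlkl Casp1 Ifnar1 intestines, Axin2 was at 17.4, 13.1 and 14.6 RPKM, the highest mean of the D387A set, although this range overlapped that of 1xDA Cflar Mlkl intestines. Against Mlkl-/- controls its log2 fold change was 1.41 (SE 0.13, adjusted p = 6.64e-07). Lgr5 was at 2.19, 1.99 and 1.49 RPKM, the lowest mean of the set. Each of these embryos was below each control, but the difference did not pass (log2 fold change -0.48, SE 0.23, adjusted p = 0.102). Fitted with only these 2 groups, it did (-0.46, adjusted p = 0.0296), as did Smoc2 as lower (-0.25, adjusted p = 0.0438).

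In that comparison with the controls, 5 genes passed as higher (24.7% of all genes did) and Axin2 and Ascl2 were called higher (6.76% of all genes). Ascl2 was at 9.8, 7.3 and 6.98 RPKM, above every control (log2 fold change 1.41, SE 0.24, adjusted p = 0.000121). Olfm4 was at 66.5, 54.4 and 50.7 RPKM (log2 fold change 0.88, SE 0.16, adjusted p = 0.000204). Sox9 and Prom1 had log2 fold changes of 0.51 (SE 0.12, adjusted p = 0.0018) and 0.65 (SE 0.08, adjusted p = 7.32e-06), directions that turned, to -0.17 and -0.03, with scaling to the epithelial markers. On that scale Axin2 and Ascl2 passed at 0.73 and 0.74 but were no longer called, and Olfm4 was at 0.20 (adjusted p = 0.393) and did not pass. Lgr5 was called lower there (-1.15), and Smoc2 (-0.95), Msi1 (-0.65) and Rnf43 (-0.58) passed as lower. Other markers moved in these intestines, and their part was not tested. All 8 goblet cell markers were higher than in the controls (4740 to 6210 CPM compared with 1100 to 2410 CPM), as were 5 of 6 Paneth markers (94.7 to 125 CPM compared with 17.2 to 37.4 CPM), 5 of 8 macrophage markers (647 to 751 CPM compared with 422 to 455 CPM), 11 of 15 cell cycle genes and 9 of 12 epithelial markers (7170 to 7520 CPM compared with 4950 to 5600 CPM). Of 10 enterocyte markers, 4 were lower and 2 higher (23.6% of all genes passed as lower).

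Loss of IFNAR1 itself, compared with 1xDA Cflar Mlkl Casp1 intestines, raised 4 genes by less than 2-fold, where 15.5% of all genes passed as higher. These were Ascl2 (log2 fold change 0.78, adjusted p = 0.0163), Axin2 (0.64, adjusted p = 0.00218), Sox9 (0.34, adjusted p = 0.0373) and Prom1 (0.26, adjusted p = 0.0198). None of the 4 passed when only the 2 groups were fitted (adjusted p from 0.0516 to 0.108), and none passed as higher with scaling to the epithelial markers, where Sox9 and Prom1 turned to -0.14 and -0.20. With that scaling Lgr5 (-0.74, adjusted p = 0.0214), Smoc2 (-0.64, adjusted p = 0.00764) and Msi1 (-0.71, adjusted p = 0.00406) passed as lower. None of the 9 was called in either direction by edgeR (5.31% of all genes were), DESeq2 or limma-voom, and 4 had an unadjusted p below 0.05 (41.7% of all genes had). Of the 4 genes, Axin2 alone passed without replicate 1 or replicate 2 of the 1xDA Cflar Mlkl Casp1 embryos, and Ascl2 was called higher without Casp1-/- replicate 3 (1.07). Without Ifnar1-/- replicate 1, Axin2 passed as higher and Msi1 as lower (-0.38, adjusted p = 0.0444), and without Ifnar1-/- replicate 2, Ascl2 and Axin2 passed.

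In embryos that also lacked FADD, Axin2 alone of the 9 genes passed against the Mlkl-/- controls with all genes used for scaling. In 1xDA Cflar Mlkl Fadd Casp1 intestines it was at 8.53, 9.42 and 10.1 RPKM, above every Mlkl-/- embryo (log2 fold change 0.72, SE 0.13, adjusted p = 0.00114), and 9.97% of all genes passed as higher. The other 8 genes had log2 fold changes between -0.36 for Msi1 (adjusted p = 0.0943) and 0.17 for Ascl2. Olfm4 was at 26.8, 31.5 and 25.9 RPKM and Lgr5 at 2.64, 2.95 and 1.78 RPKM, both overlapping the controls. Called in either direction were 0 of the 9 genes by edgeR (3.78% of all genes were), DESeq2 or limma-voom, and 2 had an unadjusted p below 0.05 (31.1% of all genes had). On the epithelial scale Axin2 passed at 0.48, and Msi1 passed as lower (-0.62, adjusted p = 0.0295).

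Relative to 1xDA Cflar Mlkl Casp1 intestines, the additional loss of FADD lowered 3 genes, where 7.35% of all genes passed as lower. Olfm4 fell (log2 fold change -0.76, SE 0.16, adjusted p = 0.00301), as did Prom1 (-0.51, SE 0.08, adjusted p = 0.00043) and Msi1 (-0.61, SE 0.14, adjusted p = 0.00741). None of the 9 was called in either direction by edgeR (3.44% of all genes were), DESeq2 or limma-voom, and 3 had an unadjusted p below 0.05 (31.6% of all genes had). Axin2 differed by -0.05 (95% interval -0.30 to 0.21). The Fadd-/- embryos had 54000 to 59900 CPM of enterocyte markers, above the 26300 to 37100 CPM of the Casp1-/- embryos.

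In C362A Mlkl intestines 5 stem cell genes rose and 1 fell. Relative to Mlkl-/- controls, these intestines had Axin2, Ascl2, Sox9, Prom1 and Rnf43 higher (22.4% of all genes passed as higher) and Smoc2 lower (19.7% passed as lower), and Axin2 alone was called (10.4% of all genes were called higher). Axin2 was at 5.64, 4.96 and 4.56 RPKM in the controls and at 13.6, 15.9 and 12.8 RPKM in the mutants, without overlap (log2 fold change 1.48, SE 0.15, adjusted p = 1.58e-06). Lgr5 was at 2.99, 2.47 and 2.56 RPKM in the controls and at 1.73, 2.4 and 1.9 RPKM in the mutants. These ranges also did not overlap, in the opposite direction to Axin2, and the difference did not pass (log2 fold change -0.41, SE 0.16, adjusted p = 0.0587). It passed without mutant replicate 2 (-0.56, adjusted p = 0.024), by DESeq2 (-0.43, adjusted p = 0.0318) and with RLE size factors (-0.43, adjusted p = 0.0494).

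Smoc2 fell from 30.8, 25.5 and 23.5 RPKM to 18.3, 13.6 and 14.5 RPKM (log2 fold change -0.78, SE 0.21, adjusted p = 0.0076). Prom1 rose from 7.01, 5.97 and 6.3 RPKM to 11.1, 11.2 and 12.3 RPKM (log2 fold change 0.84, SE 0.10, adjusted p = 1.05e-05). Sox9 (0.75, adjusted p = 0.000673) and Ascl2 (0.90, adjusted p = 0.0141) also rose, as did Rnf43 (0.48, adjusted p = 0.00221), whose direction turned to -0.23 with scaling to the epithelial markers. Ascl2 did not pass without control replicate 3 (adjusted p = 0.0632) or mutant replicate 2 (0.0849), and was called without control replicate 1 (1.04) or mutant replicate 1 (1.11). Olfm4 was at 36.2, 38.6 and 27.9 RPKM in the controls and 31.6, 29.4 and 49.2 RPKM in the mutants, which overlapped (log2 fold change 0.10, 95% interval -0.68 to 0.88). On the epithelial scale Axin2 passed at 0.77 and was no longer called, and Prom1 (0.12, adjusted p = 0.476), Sox9 (0.04, adjusted p = 0.842) and Ascl2 (0.23, adjusted p = 0.493) did not pass. Lgr5 (-1.11) and Smoc2 (-1.52) were called lower on that scale, and Msi1 passed as lower (-0.84).

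Markers of other cells moved in the same C362A Mlkl intestines, and their part in the stem cell gene values was not tested. Of all genes, 22.4% passed as higher and 19.7% as lower in this comparison. Of 10 enterocyte markers 7 were lower, with a sum of 22400 to 28000 CPM compared with 43300 to 65800 CPM in the controls. All 6 Paneth markers were higher (232 to 280 CPM compared with 32.5 to 47.9 CPM), as were 7 of 8 goblet cell markers, 12 of 15 cell cycle genes and 8 of 12 epithelial markers (1 of the 12 was lower). Of the immune lists, 6 of 8 neutrophil markers were higher (319 to 407 CPM compared with 12.6 to 30.7 CPM), as were 6 of 8 macrophage markers (768 to 782 CPM compared with 384 to 456 CPM) and 5 of 7 T and NK cell markers (59.1 to 70.1 CPM compared with 8.05 to 9.97 CPM), with 1 of the 7 lower. Each of these sums lay outside the range of the controls.

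**Figure D4:**
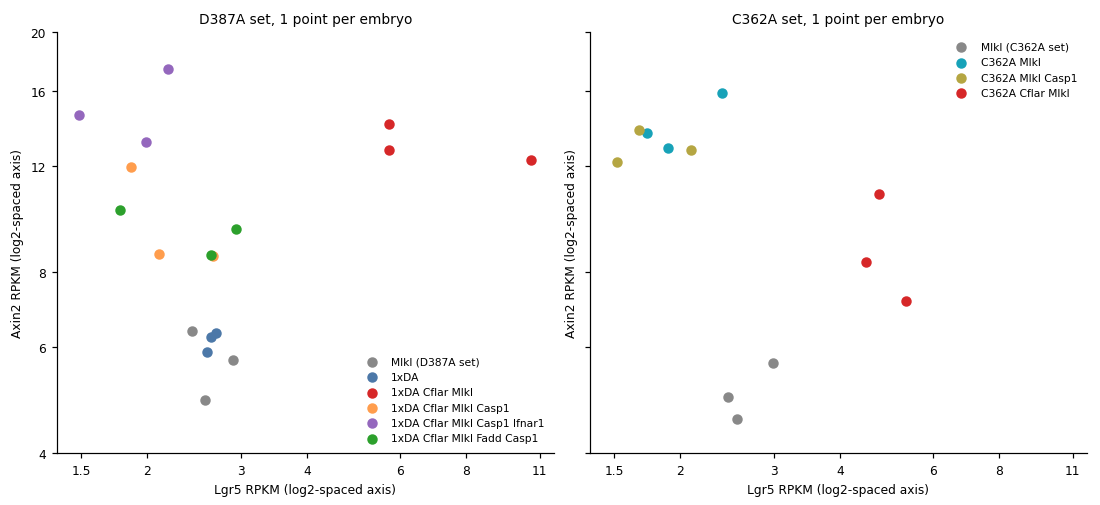
Axin2 against Lgr5, both in RPKM on log2-spaced axes, with 1 point per embryo and 1 colour per genotype, for the D387A set (left) and the C362A set (right). The 1xDA Cflar Mlkl and C362A Cflar Mlkl embryos stand to the right with Lgr5 from 4.49 to 10.6 RPKM, and the C362A Mlkl embryos (Axin2 from 12.8 to 15.9 RPKM) and C362A Mlkl Casp1 embryos (12.2 to 13.8 RPKM) stand at the upper left of the C362A set.

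Loss of caspase-1 in C362A Mlkl intestines lowered Prom1 and Sox9. Prom1 was at 4.88, 5.18 and 5.73 RPKM in C362A Mlkl Casp1 embryos, below both other groups (log2 fold change on loss of caspase-1 -1.13, SE 0.10, adjusted p = 1.98e-06). It was the only gene called lower, as were 5.72% of all genes, and 15.5% of all genes passed as lower. Sox9 had a log2 fold change of -0.47 (adjusted p = 0.0205) that did not pass without C362A Mlkl replicate 2 (0.0891) or 3 (0.0561), nor without Casp1-/- replicate 2 (0.0655) or 3 (0.0631). Axin2 stayed at 13.8, 12.7 and 12.2 RPKM, overlapping the embryos with caspase-1 (log2 fold change -0.13, 95% interval -0.41 to 0.15). Scaled to the epithelial markers, Prom1 passed at -0.88 and was not called, Sox9 was at -0.23 (adjusted p = 0.337) and did not pass, and Smoc2 passed as higher (0.67, adjusted p = 0.0336). All 10 enterocyte markers rose on this loss (17.9% of all genes did), from a sum of 22400 to 28000 CPM to one of 66000 to 81900 CPM. Paneth markers fell for 5 of 6 genes (to 42.6 to 59.6 CPM), neutrophil markers for 7 of 8 (to 17.5 to 21.3 CPM), macrophage markers for 6 of 8, with 1 higher, and epithelial markers for 6 of 12, with 2 higher. Their part in the changes of Prom1 and Sox9 was not tested.

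Against the Mlkl-/- controls, the C362A Mlkl Casp1 embryos had Axin2 called higher (log2 fold change 1.35, SE 0.15, adjusted p = 9.6e-06), as were 6.79% of all genes. Rnf43 passed as higher (0.37, adjusted p = 0.0156), as did 19.0% of all genes, and its direction turned to -0.11 with scaling to the epithelial markers. Lgr5 was at 1.67, 2.1 and 1.52 RPKM and passed as lower (log2 fold change -0.60, SE 0.17, adjusted p = 0.012), as did Prom1 (-0.29, adjusted p = 0.0401) and 17.1% of all genes. The smaller of these changes depended on single embryos and on the settings of the test. Prom1 did not pass without control replicate 1 (0.103) or without Casp1-/- replicate 1 (0.111) or 2 (0.0876), and Rnf43 did not without control replicate 2 (0.064) or 3 (0.0519) or Casp1-/- replicate 1 (0.0957) or 2 (0.0652). Without the filter on low counts neither passed (adjusted p = 0.0807 for Prom1 and 0.0534 for Rnf43). Prom1 also did not pass by limma-voom (0.0526), with a replicate block (0.051) or when only the 2 groups were fitted (0.0622). Ascl2, at 0.67 (adjusted p = 0.0662), passed by DESeq2 (0.0491), without the filter (0.0487) and with only the 2 groups (0.0362). On the epithelial scale Axin2 passed at 0.88 and was no longer called, Lgr5 was called lower (-1.08), and Smoc2 (-0.84), Prom1 (-0.76) and Msi1 (-0.70) passed as lower. Smoc2 passed as lower without Casp1-/- replicate 3 (-0.61, adjusted p = 0.0475). Sums were above the controls for epithelial (6850 to 7220 CPM compared with 4520 to 5280 CPM), enterocyte (66000 to 81900 compared with 43300 to 65800 CPM) and macrophage markers (588 to 638 compared with 384 to 456 CPM). Sums of enteric neuron and glia markers were below them (78.6 to 96.5 compared with 128 to 185 CPM). The part of these in the stem cell gene values was not tested.

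The response to loss of caspase-1 differed between the 2 backgrounds for 4 of the 9 genes. The difference was tested as an interaction over all 30 intestine libraries (D387A set minus C362A set), where 16.9% of 19643 genes passed. For Lgr5 it was -1.51 on the log2 scale (95% interval -2.10 to -0.92, adjusted p = 0.00161). For Ascl2 it was -1.41 (-2.10 to -0.71, adjusted p = 0.00845) and for Rnf43 -0.68 (-0.97 to -0.39, adjusted p = 0.0035). In the C362A set itself the changes of Lgr5 (-0.19), Ascl2 (-0.23) and Rnf43 (-0.11) did not pass. The difference for Olfm4 was -1.47 (-2.34 to -0.60, adjusted p = 0.024), and it did not pass without 1xDA Cflar Mlkl replicate 2 (adjusted p = 0.0807) or C362A Mlkl replicate 1 (0.056) or 2 (0.062). With scaling to the epithelial markers neither Olfm4 (-1.32, adjusted p = 0.0648) nor Rnf43 (-0.54, adjusted p = 0.135) passed. The levels before loss of caspase-1 differed too. Against their own controls, Lgr5, Olfm4, Ascl2 and Rnf43 were at 1.48, 1.89, 2.29 and 0.74 in 1xDA Cflar Mlkl intestines. In C362A Mlkl intestines they were at -0.41, 0.10, 0.90 and 0.48, and Lgr5 and Olfm4 did not pass. The genotypes that lost caspase-1 also differed at Cflar, which was deleted in the D387A set only. The allele and cFLIP therefore cannot be told apart here.

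Prom1 fell by more than 2-fold on loss of caspase-1 in both backgrounds, and the difference between them was -0.24 (95% interval -0.47 to -0.02, adjusted p = 0.14). For Axin2 it was -0.28 (-0.66 to 0.10, adjusted p = 0.328), for Sox9 -0.46 (adjusted p = 0.0752) and for Smoc2 -0.57 (adjusted p = 0.117). Leaving out 1 embryo let a few of these pass. Sox9 passed without 1xDA Cflar Mlkl replicate 1 (-0.57) or C362A Mlkl replicate 2 (-0.56), Prom1 without 1xDA Cflar Mlkl Casp1 replicate 3 (-0.32), and Smoc2 without C362A Mlkl Casp1 replicate 1 (-0.74).

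Loss of cFLIP in C362A Mlkl intestines moved Lgr5 and Axin2 in opposite directions. Lgr5 rose to 5.33, 4.49 and 4.74 RPKM in C362A Cflar Mlkl embryos, above every other embryo of the set (log2 fold change on loss of cFLIP 1.27, SE 0.16, adjusted p = 0.000251). Axin2 fell to 7.15, 8.3 and 10.8 RPKM, below every C362A Mlkl embryo and above every Mlkl-/- embryo (log2 fold change -0.69, SE 0.14, adjusted p = 0.00424). With libraries scaled to the epithelial markers Lgr5 was at 1.47, and Axin2 was at -0.48 and did not pass (adjusted p = 0.0636). In this comparison Lgr5 and Olfm4 were called higher, as were 1.45% of all genes, 4 stem cell genes passed as higher (6.95% of all genes) and Axin2 as lower (12.4%).

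Prom1 rose to 20.7, 19.1 and 21.2 RPKM on loss of cFLIP (log2 fold change 0.82, SE 0.10, adjusted p = 0.000183), and Smoc2 rose to 37.3, 31.9 and 22 RPKM (0.97, SE 0.21, adjusted p = 0.00535). Smoc2 was called without C362A Mlkl replicate 1 (1.11) or C362A Cflar Mlkl replicate 3 (1.16), when only the 2 groups were fitted (1.02), and, as was Prom1 (1.04), with scaling to the epithelial markers (1.23). Olfm4 was at 290, 104 and 62 RPKM, the largest SD of any of the 9 genes in any genotype (122 RPKM). All 3 embryos were above the other groups (log2 fold change 2.05, SE 0.41, adjusted p = 0.00334), and without replicate 1, the highest, it was 1.17. Enterocyte markers fell for 10 of 10 genes, where 12.4% of all genes passed as lower. Of 15 cell cycle genes 7 rose, as did 2 of 6 Paneth markers and 3 of 8 smooth muscle markers, where 6.95% of all genes passed as higher. Their part in the stem cell gene values was not tested.

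Compared with Mlkl-/- controls, C362A Cflar Mlkl intestines had 7 of the 9 genes higher (27.9% of all genes passed as higher), with Olfm4, Ascl2 and Prom1 called (13.4% of all genes). Olfm4 had a log2 fold change of 2.15 (SE 0.41, adjusted p = 0.000511), which was 1.27 without replicate 1. Prom1 had one of 1.66 (SE 0.10, adjusted p = 1.45e-08) and Ascl2, at 4.23, 5.14 and 7.18 RPKM, one of 1.43 (SE 0.27, adjusted p = 0.000412). Lgr5 (0.86, SE 0.16, adjusted p = 0.000452), Axin2 (0.79, SE 0.15, adjusted p = 0.000372), Sox9 (0.94, SE 0.14, adjusted p = 6.73e-05) and Rnf43 (0.54, SE 0.11, adjusted p = 0.000695) rose by less than 2-fold. Sox9 was called without control replicate 1 (1.11) or mutant replicate 2 (1.02). Smoc2 and Msi1 did not pass, at 0.19 and 0.17. With scaling to the epithelial markers 4 genes passed as higher, of which Olfm4 and Prom1 were called and Ascl2 (0.94) was not. Lgr5 (0.36, adjusted p = 0.161), Axin2 (0.29, adjusted p = 0.17) and Rnf43 (0.04, adjusted p = 0.841) did not pass on that scale. In the same comparison 9 of 10 enterocyte markers were lower (4120 to 12000 CPM), where 24.9% of all genes were. All 6 Paneth markers (291 to 694 CPM), 13 of 15 cell cycle genes and 6 of 8 neutrophil markers (170 to 271 CPM) were higher. Sums of smooth muscle (6200 to 7250 compared with 2660 to 4340 CPM), goblet (4130 to 4820 compared with 1930 to 2550 CPM) and T and NK cell markers (42.1 to 62.7 compared with 8.05 to 9.97 CPM) were above the controls. Sums of enteric neuron and glia markers were below them (85.8 to 123 compared with 128 to 185 CPM). The part of all these was not tested.

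The effects of the combined genotypes in the 2 sets were set against each other in the same way, since both combine a caspase-8 mutant with loss of cFLIP and MLKL. By edgeR 0 of the 9 genes differed between 1xDA Cflar Mlkl and C362A Cflar Mlkl intestines, each relative to its own controls, and 0 did by DESeq2 or limma-voom, while 0.127% of all genes passed. Lgr5 and Ascl2 had an unadjusted p below 0.05. The difference for Ascl2 was 0.85 (95% interval 0.14 to 1.56, adjusted p = 0.183) and that for Lgr5 0.61 (0.04 to 1.19, adjusted p = 0.235). These intervals reach above 1, so they include differences of more than 2-fold for both genes. Without C362A Cflar Mlkl replicate 3, the embryo that stood apart from the other embryos of its genotype, Ascl2 (1.09, adjusted p = 0.0468) and Axin2 (0.59, adjusted p = 0.04) passed.

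**Figure D5:**
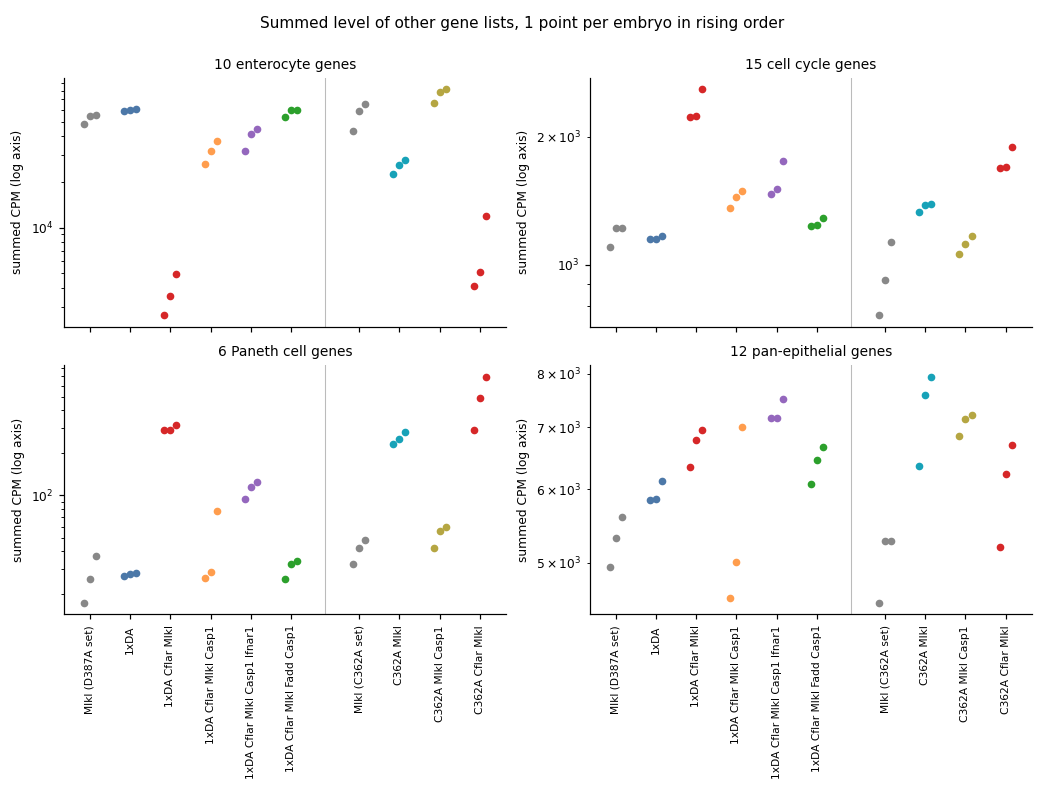
Summed level in CPM (log axis) of 10 enterocyte, 15 cell cycle, 6 Paneth cell and 12 epithelial genes in each embryo (points) of both intestine sets, by genotype. Enterocyte sums are 48100 to 55200 CPM in the Mlkl-/- embryos of the D387A set and 2630 to 4960 CPM in 1xDA Cflar Mlkl embryos, and Paneth sums are highest in the 1xDA Cflar Mlkl, C362A Mlkl and C362A Cflar Mlkl embryos.

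The wider crypt and Wnt lists were read in both C362A genotypes beside all genes, of which 22.4% passed as higher and 19.7% as lower in C362A Mlkl and 27.9% and 24.9% in C362A Cflar Mlkl intestines. In C362A Mlkl intestines, 4 of 13 other Wnt targets were higher and 1 lower, and Sp5 (log2 fold change 3.57, SE 0.26), Cd44 (2.53, SE 0.18) and Myc (1.90, SE 0.13) rose as they did in C362A Cflar Mlkl intestines (4.17, 2.43 and 2.11). Lef1, a transcription factor gene of Wnt signalling that passed the filter on low counts in the C362A set only, rose in both (2.08, SE 0.60, and 1.93, SE 0.61). Of 16 other crypt base genes, 3 passed in each direction in C362A Mlkl intestines, near the shares of all genes, and 6 as higher and 3 as lower in C362A Cflar Mlkl intestines. Aqp4 was at 0.25 (SE 0.19) and Slc12a2 at -0.05 (SE 0.13) in the former, neither of which passed, and both rose on loss of cFLIP (1.03, SE 0.19, and 0.96, SE 0.13). Hopx rose in both genotypes (1.06 and 1.69), and Tert fell in both (-2.50 and -2.81).

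Of 12 genes for Wnt ligands and R-spondins, 1 was higher and 2 were lower in C362A Mlkl intestines, and 4 were higher and 2 lower in C362A Cflar Mlkl intestines. Of all genes, 22.4% were higher and 19.7% lower in the former and 27.9% and 24.9% in the latter, so these counts are near or below the shares of all genes. Rspo3 had log2 fold changes of 0.62 (adjusted p = 0.0618) and 1.12 (adjusted p = 0.00183), and Wnt2 of 0.88 (adjusted p = 0.222) and 2.21 (adjusted p = 0.00217). On loss of cFLIP itself Wnt2 was at 1.33 (adjusted p = 0.0592) and Rspo3 at 0.50 (adjusted p = 0.181), and neither passed.

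Ordered by mean level, the genotypes followed different ladders for different genes. For Lgr5 in the C362A set, C362A Cflar Mlkl embryos (mean 4.85 RPKM) stood above Mlkl-/- embryos (2.67 RPKM). Below these were C362A Mlkl (2.01 RPKM) and C362A Mlkl Casp1 embryos (1.76 RPKM), and only the last 2 overlapped. The lowest Mlkl-/- embryo (2.47 RPKM) was close to the highest C362A Mlkl embryo (2.40 RPKM), and that difference did not pass by edgeR (adjusted p = 0.0587). For Axin2 in the same set C362A Mlkl (14.1 RPKM) and C362A Mlkl Casp1 embryos (12.9 RPKM), which overlapped, stood highest. C362A Cflar Mlkl (8.75 RPKM) and Mlkl-/- embryos (5.06 RPKM) stood below them, the former above the latter as for Lgr5. In the D387A set, the 5 genotypes below 1xDA Cflar Mlkl (7.35 RPKM) formed a run of overlapping neighbours for Lgr5, from 2.64 RPKM in 1xDA to 1.89 RPKM in Ifnar1-/- embryos. By the ranges of the embryos, Prom1 had 4 steps in the D387A set. The means were 23.5 in 1xDA Cflar Mlkl, 10.7 in Ifnar1-/- and 8.91 RPKM in Casp1-/- embryos. The remaining 3 genotypes overlapped, at 6.26 to 6.82 RPKM. The step between Ifnar1-/- and Casp1-/- embryos was small (log2 fold change 0.26) and not robust. It did not pass when only the 2 groups were fitted (adjusted p = 0.108), nor without replicate 1 or 2 of either genotype. With scaling to the epithelial markers it turned to -0.20.

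The genes also differed in how far they ranged over the intestines. Olfm4 ran from 25.9 to 290 RPKM and Ascl2 from 1.4 to 17.2 RPKM, whereas Rnf43 ran from 7.23 to 15.8 RPKM and Msi1 from 4.82 to 12.6 RPKM. The genes whose log2 fold changes over the 8 mutant genotypes were most like those of Lgr5, by the mean absolute difference among 15908 genes, were Art4 (0.18), Fbln2 (0.18) and Eln (0.19), of which Fbln2 and Eln encode proteins of the extracellular matrix. Of the other stem cell genes Smoc2 had the smallest difference from Lgr5 (0.38, rank 386), and Axin2 was in rank 13993. Smoc2 did not rise with Lgr5 against the controls, however. It was at 0.06 where Lgr5 was at 1.48 in 1xDA Cflar Mlkl intestines. In C362A Cflar Mlkl intestines it was at 0.19 where Lgr5 was at 0.86. For Olfm4 the most alike were Ero1l (0.27), Tnfaip8l1 (0.27) and Igfbp2 (0.27), with Prom1 in rank 15, and for Ascl2 they were Nudcd1 (0.19), Pawr (0.22) and Plscr1 (0.22).

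MEF libraries were normalised separately and, per the study's methods, made with a different kit from the intestine libraries. MEFs gave the levels of these transcripts in cells other than epithelium. Their 12 epithelial markers summed to 44 to 77.8 CPM, with Cdx2 at 0, and their 8 fibroblast markers to 21500 to 24500 CPM, against 1180 to 5110 CPM in the intestines. Olfm4 was at 0 to 0.115 RPKM and Ascl2 at 0.0281 to 0.105 RPKM. Rnf43 (0.134 to 0.921 RPKM), Prom1 (1.15 to 2.1 RPKM) and Msi1 (1.3 to 2.44 RPKM) were low as well, and Axin2 was at 1.89 to 3.1 RPKM. These 6 genes were lower in every MEF library than in any intestine.

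By contrast, 3 genes were abundant in MEFs. Lgr5 was at 7.97, 17.6 and 19.7 RPKM in Mlkl-/- MEFs and at 4.18, 12.3 and 12 RPKM in 1xDA Cflar Mlkl MEFs, each above the 2.43 to 2.99 RPKM of the control intestines. Sox9 was at 7.56 to 9.97 RPKM and Smoc2 at 24.6 to 40.8 RPKM in the 6 MEF libraries. In the intestines, 8 of 8 smooth muscle markers were lower on loss of Casp1 in the D387A set, where Lgr5 fell. Their sums were 7220 to 9020 CPM with caspase-1 and 4680 to 5070 CPM without. Of the same markers 3 of 8 were higher on loss of Cflar in the C362A set, where Lgr5 rose. Their sums there were 3310 to 4600 CPM with cFLIP and 6200 to 7250 CPM without. Fibroblast markers were 4 of 8 lower and 1 higher on loss of Casp1 (sums of 4950 to 5110 CPM with caspase-1 and 3850 to 4520 CPM without). On loss of Cflar 2 of 8 were higher, and their sums overlapped (2000 to 2610 CPM with cFLIP and 1970 to 2840 CPM without). Of all genes, 22.5% were lower and 24.5% higher on loss of Casp1, and 6.95% were higher on loss of Cflar. In C362A Mlkl intestines each embryo was below the controls for Lgr5, but that difference did not pass by edgeR (adjusted p = 0.0587). The sums of the smooth muscle markers overlapped there (3310 to 4600 CPM compared with 2660 to 4340 CPM in the controls). The share of the intestinal Lgr5, Sox9 and Smoc2 transcripts that came from cells other than epithelium was not tested.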

How the data were processed

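RNA from snap-frozen intestines and from MEFs was sequenced as 50-base single-end reads. Per the labels and the methods of the study, the authors aligned reads to GRCm38 (mm10) with GSNAP and counted uniquely aligned reads in exons, and the deposited files hold raw read counts per Ensembl gene for each library. The labels and the study's methods name different library kits, 1 stranded and 1 not. How the counting treated strand is not given in the sources used here. Reads of Axin2 and Prom1 therefore cannot be told from those of their antisense genes. The methods also name a different kit for the MEFs compared with the intestines. A deposited RPKM column of the same reads was not used in the tests. No column belonged to other samples (0 unused).

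Each intestine set was fitted together (18 libraries and 18360 genes in the D387A set, 12 libraries and 19408 genes in the C362A set) with the quasi-likelihood test of edgeR 4.0.16 in R 4.3.3, after filterByExpr (minimum count 10, minimum total 15) and TMM scaling, with a prior count of 0.125 and Benjamini-Hochberg adjustment over all genes. A gene passed at an adjusted p below 0.05 and was called if its absolute log2 fold change was also above 1. Intervals are 1.96 SE on each side. Differences between the sets were interaction terms of 1 fit of all 30 libraries (19643 genes). RPKM was computed from the counts, the TMM-scaled total and the gene width in the files. The labels mark the 3 samples of a genotype as biological replicates, so p-values measure the spread between embryos. Depth limits genes near 0, such as Olfm4 and Ascl2 in MEFs, and the number of embryos limits the rest.

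Replicates of a genotype differed by more than counting noise in all 36 pairs (chi-square per gene 5.01 to 70.8), so none was counted as 1 sample with another. Alternatives were DESeq2 1.42.0 and limma-voom (limma 3.58.1), RLE size factors, fits without the filter or with genes of at least 50 reads on average, a larger prior count (2), fits limited to the 2 groups compared, a replicate block, leaving out each library, and, chosen after seeing the data, scaling to the 12 epithelial genes. The scripts were tested on simulated counts. The 9 genes and all marker lists were chosen with earlier results of these data known. Besides the 9 genes, the text names members of the lists that were called in a main comparison, a few of them to stand for each list, and the 3 genes most alike in pattern.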

Additional observations from a re-analysis of the deposited data

Results flagged for a closer look

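The effect of losing Casp1 differed between the D387A and the C362A backgrounds by a test of the difference itself for 4 stem cell genes. On the log2 scale the difference was -1.51 for Lgr5, -1.47 for Olfm4, -1.41 for Ascl2 and -0.68 for Rnf43, each lower in the D387A set. Lgr5 and Ascl2 passed with every embryo left out in turn and with scaling to the epithelial markers. Olfm4 did not pass without 1xDA Cflar Mlkl replicate 2 (adjusted p = 0.0807) or C362A Mlkl replicate 1 (0.056) or 2 (0.062), and with that scaling neither Olfm4 (adjusted p = 0.0648) nor Rnf43 (0.135) did. These 4 values come from 1 fit over all intestines, and the D387A genotypes lacked Cflar whereas the C362A genotypes did not. Before loss of Casp1, Lgr5 and Olfm4 were above the controls in 1xDA Cflar Mlkl intestines (1.48 and 1.89). In C362A Mlkl intestines they were at -0.41 and 0.10 and did not pass.

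In MEFs, which none of the comparisons used, 2 stem cell genes were above the control intestines in every library. The lowest MEF library was at 4.18 RPKM for Lgr5, where the highest control intestine was at 2.99 RPKM. For Sox9 these values were 7.56 and 6.61 RPKM. MEF and intestine libraries were normalised separately and, per the study's methods, made with different kits. The part of this in the differences was not tested.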

How the results depend on the processing

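Over the planned settings, 918 of 936 log2 fold changes kept their side of the threshold, 9 no longer passed, 9 newly passed, and none that passed changed sign. With 1 library left out, 670 of 702 did, 27 no longer passed and 5 newly passed. Among those that kept their side, 3 and 30 values that passed in neither fit changed sign. The differences between the sets are not in these counts. With the raw total in place of the TMM-scaled total, 24 of 108 mean RPKM levels moved by more than 1 SD. The causes were not tested.

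Scaling to the 12 epithelial genes, chosen after seeing the data, changed most. Of 117 log2 fold changes, 81 kept their side of the threshold, of which 22 that passed under neither scaling changed sign. Without a change of sign, 15 no longer passed and 11 newly passed. Another 10 values turned around, and each of these passed under only 1 of the scalings. These were Smoc2 (-0.55) and Msi1 (-0.070) in 1xDA Cflar Mlkl intestines, Sox9 (-0.17), Prom1 (-0.034), Msi1 (-0.65) and Rnf43 (-0.58) in Ifnar1-/- intestines, Sox9 (-0.14) and Prom1 (-0.20) on loss of Ifnar1, and Rnf43 in C362A Mlkl (-0.23) and C362A Mlkl Casp1 intestines (-0.11). Called genes went from 6 to 3 in 1xDA Cflar Mlkl intestines, from 2 to 1 in Ifnar1-/- intestines (from 2 higher to Lgr5 lower), from 1 to 2 in C362A Mlkl intestines (from Axin2 higher to Lgr5 and Smoc2 lower), from 1 to 0 on loss of Casp1 in the C362A set and from 2 to 4 on loss of Cflar. In C362A Mlkl Casp1 intestines the 1 called gene went from Axin2 higher to Lgr5 lower. Genes that passed went from 3 to 1 in Casp1-/- intestines of the D387A set, from 1 to 2 in Fadd-/- intestines (Msi1 as lower) and from 7 to 4 in C362A Cflar Mlkl intestines, and those whose response to Casp1 loss differed between the sets from 4 to 2. The epithelial genes themselves moved, with 7 of 12 higher and 2 lower in 1xDA Cflar Mlkl intestines.

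Fitting only the 2 groups compared, the genes that passed on loss of Ifnar1 went from 4 to 0. Leaving out 1 library, they ranged from 1 to 4 and the called genes there from 0 to 1. The called genes ranged from 1 to 2 in C362A Mlkl intestines, the genes that passed from 2 to 5 in C362A Mlkl Casp1 intestines and from 1 to 2 on loss of Casp1 in the C362A set, and the genes that differed between the sets from 0 to 2 for the Cflar-/- Mlkl-/- genotypes and from 3 to 5 for loss of Casp1.

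Replicate numbers do not pair the embryos: correlations of same-numbered deviations ran from -0.32 to 0.29 in the D387A set and from -0.51 to 0.35 in the C362A set, and 8 of 18 and 2 of 12 libraries correlated best with their own number. With a replicate block the counts of called genes were as before, and the genes that passed in C362A Mlkl Casp1 intestines went from 4 to 3.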
